A study of Mus musculus with 2 samples.

Results

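The 10 genes followed here belong to the transforming growth factor beta (TGF-beta) pathway and were read across leukocytes sorted from diseased mouse kidney. They are the ligand gene Tgfb1, the ligand-tethering gene Lrrc32, the receptor genes Tgfbr1 and Tgfbr2, the signal transducer Smad3, the inhibitors Smad7, Ski and Skil, and the response genes Pmepa1 and Tgfbi. They were taken by symbol, and all 10 were found among the 32285 genes of both single-cell count matrices. The cells came from kidneys of B6 mice with chronic kidney disease from aristolochic acid nephropathy (AAN CKD), in which a plant toxin injures the proximal tubule, and the time label gives week 2. Kidneys were digested with the collagenase Liberase, viable cells stained for the pan-leukocyte protein CD45 were sorted, and 3′ single-cell libraries were made from 2 hashed samples of 1 capture. No untreated kidney was part of the single-cell data, so every comparison is between cell classes of the same diseased kidneys. The title also names a week 1 and a single mouse. The 2 matrices are named w2 m1 and W2 m2, which would read as week 2 and mice 1 and 2. No label explains these names. By the title the hashed samples may be of different weeks, and then any difference between them cannot be told apart from a difference in time. Other labels call the cells mesenchymal stem cells and mention human kidneys, and neither was used. Apart from the matrix names, nothing in the labels says whether the hashed samples were separate animals. The hashed samples are therefore given side by side, with exact 95% intervals that cover counting error only and with no test.

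TGF-beta1 is secreted in a latent complex that must be opened before it can signal. On regulatory T cells the latent complex is held at the surface by the product of Lrrc32 (GARP), and on macrophages by that of Nrros. The active ligand binds the receptor encoded by Tgfbr2, which phosphorylates that of Tgfbr1, and Smad2 and Smad3 then carry the signal to the nucleus. Smad7 blocks the type I receptor, Ski and Skil are nuclear co-repressors of Smad complexes, Pmepa1 encodes a membrane protein that restrains Smad activation, and Tgfbi encodes a secreted matrix protein. In the kidney the pathway is best known for driving fibrosis, and in leukocytes for restraining T cells and shaping tissue macrophages.

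The DNA just upstream of the start of the target gene Tgfbi and of both receptor genes is shown because it carries letters that Smad proteins bind. Capitals mark the Smad box CAGAC on either strand (read as GTCTG on the other strand) and the GC-rich Smad element GGCGCC. Each run is the 250 bases before the RefSeq start in build GRCm38.p6, read 5′ to 3′ on the gene's strand. For Tgfbi and Ski the start in the GENCODE annotation lies inside this window, upstream of the RefSeq start.
Tgfbi, chr13:56609336-56609585, plus strand: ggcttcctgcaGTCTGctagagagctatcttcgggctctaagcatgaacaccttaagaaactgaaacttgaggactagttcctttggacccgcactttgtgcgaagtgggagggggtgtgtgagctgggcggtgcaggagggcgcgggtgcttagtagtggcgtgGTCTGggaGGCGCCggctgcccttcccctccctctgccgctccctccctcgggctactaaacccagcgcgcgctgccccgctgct
Tgfbr2, chr9:116175364-116175613, minus strand: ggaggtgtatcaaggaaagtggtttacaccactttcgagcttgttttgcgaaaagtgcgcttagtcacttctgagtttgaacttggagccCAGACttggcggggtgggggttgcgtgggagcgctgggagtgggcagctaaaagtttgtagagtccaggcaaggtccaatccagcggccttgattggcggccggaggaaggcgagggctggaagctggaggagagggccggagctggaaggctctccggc
Tgfbr1, chr4:47352972-47353221, plus strand: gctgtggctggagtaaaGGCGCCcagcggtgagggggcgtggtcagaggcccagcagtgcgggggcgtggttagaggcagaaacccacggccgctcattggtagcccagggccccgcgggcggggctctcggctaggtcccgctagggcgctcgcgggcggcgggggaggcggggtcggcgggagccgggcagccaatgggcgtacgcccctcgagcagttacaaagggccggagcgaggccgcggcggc
The Tgfbi window held 2 Smad boxes and 1 GC-rich element. The Tgfbr2 window held 1 Smad box, and the Tgfbr1 and Ski windows each held 1 GC-rich element. Neither was found in the windows of Tgfb1 and Smad3. Lrrc32, Skil and Pmepa1 had no entry in the promoter table, and the window of Smad7 was not used here. The Smad box occurred in 42.2% and the GC-rich element in 9.59% of 32851 mouse promoter windows of the same length. A Smad box match is therefore common, a GC-rich match is less so, and either describes the letters alone.

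After filtering, 6556 cells remained, 3089 from hashed sample 1 and 3467 from hashed sample 2, with median depths of 5669 and 6568 unique molecular identifiers (UMIs, each 1 counted transcript molecule). No cell barcode was shared between them. Cells were put into classes by marker genes, and the 10 classes with at least 30 cells in each hashed sample, plus Foxp3-positive CD4 T cells, carry the results. The largest class, defined by the complement genes C1qa, C1qb and C1qc and called C1q-high macrophages, had 1198 and 1821 cells. The 8 resident macrophage markers summed to 19660 and 19430 CPM there, against 1482 and 1577 CPM in classical monocytes. These markers include the C1q genes of the gate, and all 8 gave at least 1 UMI in classical monocytes too. The C1q-high class is broader than the resident macrophage clusters: 1163 of its 3019 cells lay in clusters that stayed unnamed. It was split by MHC class II transcripts (H2-Aa, H2-Ab1 and H2-Eb1) at 40 UMIs per 10000 into MHC II-low cells (198 and 649) and MHC II-high cells (1000 and 1172). T cells numbered 902 and 430, classical monocytes 106 and 112, type 2 dendritic cells 88 and 199, and migratory dendritic cells 49 and 33. Levels are CPM, the UMIs of a gene in a class scaled to a total of 1000000 UMIs. A 3′ library counts transcript ends, and levels are compared across classes for 1 gene at a time, not between genes.

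Tgfb1, the ligand gene, was highest in classical monocytes and lowest in migratory dendritic cells. It stood at 324 and 379 CPM in classical monocytes of hashed samples 1 and 2, against 30.2 and 38.6 CPM in migratory dendritic cells. The small patrolling monocyte class (11 and 18 cells) held 471 and 374 CPM. Between these ends, macrophages, C1q-intermediate myeloid cells and type 2 dendritic cells formed a plateau: 148 to 175 CPM in hashed sample 1 and 172 to 206 CPM in hashed sample 2. T cells lay lower, at 109 and 115 CPM. The order of the 10 classes has 9 steps between neighbours. At 5 of them the hashed sample values of the neighbours did not overlap, among them the step from monocytes down to the plateau. The genes for the other ligands, Tgfb2 and Tgfb3, were near 0 in C1q-high macrophages, with no more than 0.244 CPM of Tgfb2 and 0.979 CPM of Tgfb3 in either hashed sample.

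Lrrc32, which encodes GARP, was rare, and its highest level was in Foxp3-positive CD4 T cells. It gave 24 and 23 UMIs in all, in 31 of the 6556 cells (0.473%). Foxp3-positive CD4 T cells held 6 and 2 of these UMIs (17.5 and 14.1 CPM, in 4 cells and 1 cell), against 0 and 1 UMI in Foxp3-negative CD4 T cells. In hashed sample 1 this was at least 11.6-fold higher, taking 3 counts as the upper limit that a count of 0 allows in Foxp3-negative CD4 T cells. The exact interval, which also covers the counting error of the 6 UMIs, began lower, at a ratio of 6.84. In hashed sample 2 the ratio was 8.38, with a counting interval of 0.436 to 494 that leaves its direction undecided. CD8 T cells, classical monocytes and type 2 dendritic cells had 0 UMIs in both hashed samples. Droplets gated on tubule, endothelial or fibroblast markers held 5 and 6 UMIs (11.3 and 9.004 CPM). All 5 endothelial markers were detected there, summing to 129 and 210 CPM, but these markers were part of the gate. Which of these droplets carried the Lrrc32 UMIs was not tested. In Foxp3-positive CD4 T cells 2 of the 5 endothelial markers were detected (Pecam1 and Egfl7), summing to 32.1 and 28.2 CPM, and Cdh5, Emcn and Kdr were at 0.

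**Figure D1:**
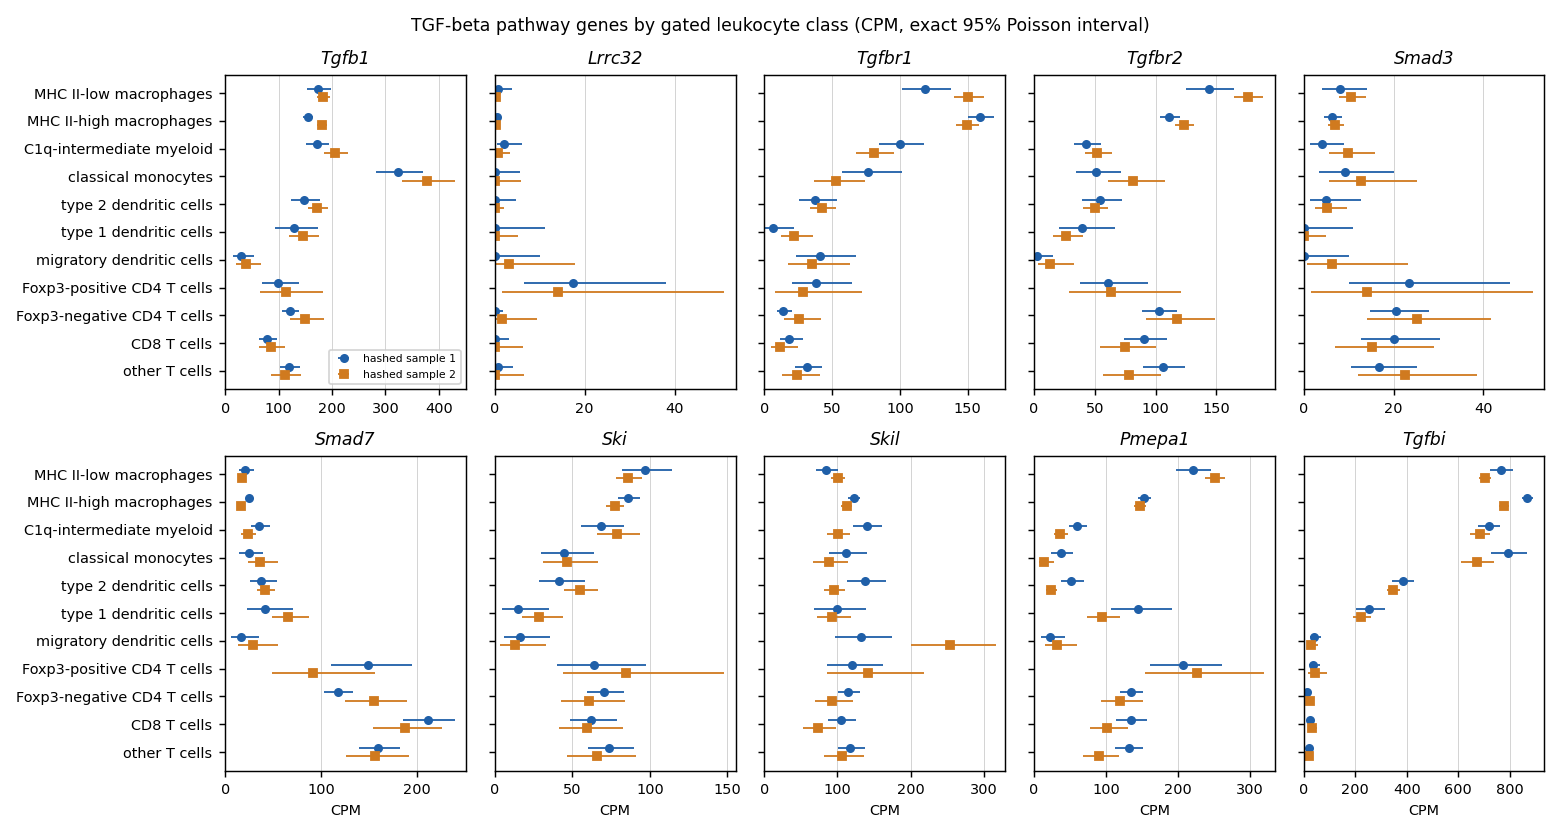
Level of each of the 10 genes (CPM, linear axes that differ between panels) in 11 leukocyte classes, with exact 95% Poisson intervals for counting error; circles are hashed sample 1 and squares hashed sample 2. Tgfb1 peaks in classical monocytes (324 and 379 CPM) and Smad7 in T cells. Pmepa1 is highest in MHC II-low C1q-high macrophages (220.5 and 251 CPM), which overlap Foxp3-positive CD4 T cells (207 and 226 CPM).

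Tgfbr1, the signalling receptor gene, was highest in macrophages. MHC II-low C1q-high macrophages held 119 and 150.3 CPM and MHC II-high ones 159 and 149.8 CPM, so their order differed between the hashed samples. C1q-intermediate myeloid cells (99.9 and 80.8 CPM) and classical monocytes (76.8 and 52.9 CPM) followed in that order in both. T cells were far lower, at 21.7 and 21.1 CPM. That is 14.3% and 14.0% of the level in C1q-high macrophages. The macrophage gene C1qa in T cells stood at 1.83% and 2.37% of its macrophage level, but both classes were gated on C1q, which limits this share. The part of RNA carried between droplets in the Tgfbr1 UMIs of T cells was not tested. Of the 10 classes, type 1 dendritic cells (6.01 and 21.9 CPM) and CD8 T cells (18.4 and 11.9 CPM) were lowest by the mean of the hashed samples. Their order differed between the hashed samples, and CD8 T cells overlapped Foxp3-negative CD4 T cells (14.1 and 25.3 CPM).

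Tgfbr2, the ligand-binding receptor gene, was spread over both macrophages and T cells. MHC II-low C1q-high macrophages led with 144 and 176 CPM, above MHC II-high ones with 111 and 124 CPM. Foxp3-negative CD4 T cells held 102.5 and 118 CPM, other T cells 106 and 78.3 CPM and CD8 T cells 90.4 and 74.7 CPM, and in this order each class overlapped the next. Migratory dendritic cells stood apart at the bottom, with 1 and 4 UMIs (2.74 and 12.9 CPM). Both receptor genes were therefore present at measurable levels in C1q-high macrophages, while T cells held Tgfbr2 with little Tgfbr1.

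Smad3, the transducer, was low everywhere. Its total was 186 and 229 UMIs, and it did not reach 50 CPM in any of the 10 classes, the level below which a gene was not counted in comparisons. T cells held 19.6 and 20.5 CPM, against 6.70 and 8.29 CPM in C1q-high macrophages. The intervals of this ratio ran from 2.08 to 4.16 in hashed sample 1 and from 1.67 to 3.60 in hashed sample 2, so the direction exceeded the counting error in both.

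Smad7, the inhibitory Smad gene, set T and NK cells apart from myeloid cells. CD8 T cells held 212 and 188 CPM, other T cells, which met neither the CD4 nor the CD8 gate, 159.9 and 157 CPM, and Foxp3-negative CD4 T cells 118 and 155 CPM. NK cells, few in number (25 and 14), held 144 and 125 CPM. Every myeloid class was lower, down to 20.9 and 17.1 CPM in MHC II-low C1q-high macrophages. With each cell thinned to 1000 UMIs, 17.7% and 18.7% of T cells had a Smad7 UMI, against 2.82% and 2.02% of C1q-high macrophages. C1q-high macrophages held 15.9% and 10.4% of the T cell level of Smad7. The T cell gene Cd3e stood at 0.263% and 0.349% there, but it was used in gating both classes, which limits this share. The part of RNA carried between droplets in the Smad7 UMIs of macrophages was not tested.

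Ski and Skil, the co-repressor genes, varied less. Ski ran from 97.1 and 86.1 CPM in MHC II-low C1q-high macrophages to 16.5 and 12.9 CPM in migratory dendritic cells, which overlapped type 1 dendritic cells (15.03 and 28.8 CPM). Skil was nearly flat: at each of its 9 steps the hashed sample values of the neighbouring classes overlapped. Migratory dendritic cells held 132 and 254 CPM of Skil, a difference between the hashed samples of 0.90 on the log2 scale.

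Pmepa1, an inhibitor gene that the pathway itself induces, was high in C1q-high macrophages, T cells and type 1 dendritic cells. Among myeloid cells it was highest in MHC II-low C1q-high macrophages (220.5 and 251 CPM), then in MHC II-high ones (153 and 147 CPM), and it dropped to 36.9 and 14.4 CPM in classical monocytes. T cells held 139 and 113 CPM, or 83.8% and 61.5% of the C1q-high macrophage level. Among T cells, the Foxp3-positive CD4 class held 207 and 226 CPM, which overlapped the values of MHC II-low macrophages. Type 1 dendritic cells were also high, at 144 and 94.6 CPM, while type 2 dendritic cells held 51.5 and 23.6 CPM. NK cells, which shared high Smad7 with T cells, had 2 and 0 UMIs of Pmepa1.

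Tgfbi, the matrix gene, was the most widely detected member, with a UMI in 67.3% of cells. MHC II-high C1q-high macrophages held 868 and 779 CPM, MHC II-low ones 766 and 704 CPM, and classical monocytes 794 and 672 CPM. Type 2 dendritic cells (384 and 348 CPM) and type 1 dendritic cells (256 and 223 CPM) were intermediate. T cells held 21.1 and 27.4 CPM, or 2.48% and 3.64% of the macrophage level. In T cells there were 0.180 and 0.187 Tgfbi UMIs for each C1qa UMI, against 0.183 and 0.160 over all cells. The ratio was 0.375 and 0.5 in NK cells, on 3 and 4 Tgfbi UMIs, and 0.4545 and 0.243 in migratory dendritic cells. T cells were gated on low C1q, which bears on their ratio. The part of RNA carried between droplets in the Tgfbi UMIs of T cells was not tested.

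For the comparisons between classes, a gene was measured where 1 or both of the compared classes had 50 CPM or more, in hashed sample 1 and in hashed sample 2 alike. It was counted as higher or lower where the ratio passed 1.5-fold the same way in both hashed samples. This rule and all log2 ratios use log2(CPM + 10), which understates the ratios of low genes, whereas ratios given with an interval are plain ratios of CPM.

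In C1q-high macrophages over classical monocytes, both receptor genes, Ski and Pmepa1 were higher and the ligand gene was lower. Of the 10 members 7 were measured, 4 were counted higher and 1 lower, where 7.15% of 2798 measured genes were counted higher and 7.47% lower. Pmepa1 stood at 166 and 184 CPM in C1q-high macrophages, against 36.9 and 14.4 CPM in classical monocytes, a ratio of 4.49 (3.01 to 7.03) in hashed sample 1 and 12.8 (6.71 to 27.9) in hashed sample 2. Tgfbr1 was higher by 0.90 and 1.35 on the log2 scale, Tgfbr2 by 1.07 and 0.73, and Ski by 0.85 and 0.68. Tgfb1 stood at 159 and 182 CPM in C1q-high macrophages, against 324 and 379 CPM in classical monocytes, and fell by 0.99 and 1.02 on the log2 scale. Tgfbi and Skil were not counted, with log2 ratios of 0.10 and 0.16 and of 0.04 and 0.27. The 8 genes listed as switched on by tissue dissociation summed to 2634 and 2617 CPM in C1q-high macrophages, against 4638 and 5392 CPM in classical monocytes, and their part in these ratios was not tested. At a fold of 2, Pmepa1 alone of these 5 members was still counted, and with gate thresholds doubled Ski was not.

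Other genes of the pathway were counted in both directions in the same comparison. Of 18 latency and activation genes 6 were measured: Itgb5, an integrin subunit that can open the latent complex, was higher (126 and 142 CPM in macrophages against 30.7 and 40.1 CPM in monocytes). Thbs1, whose product thrombospondin can activate latent TGF-beta, was lower (11.0 and 18.8 CPM in macrophages against 541 and 432 CPM in monocytes). Nrros, the macrophage tether, did not pass, at 82.9 and 122 CPM in macrophages against 84.5 and 141 CPM in monocytes. Among 23 Smads and regulators 10 were measured, and the ubiquitin ligase gene Wwp1 was counted higher. Of 11 receptors and co-receptors 1 was measured and 0 were counted. Of 20 response genes 8 were measured and 5 were lower (Id2, Junb, Bhlhe40, Fn1 and Tgm2), with a median log2 ratio of −1.01 against −0.08 over all measured genes. Fn1 is also a monocyte marker and Junb a dissociation gene here.

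**Figure D2:**
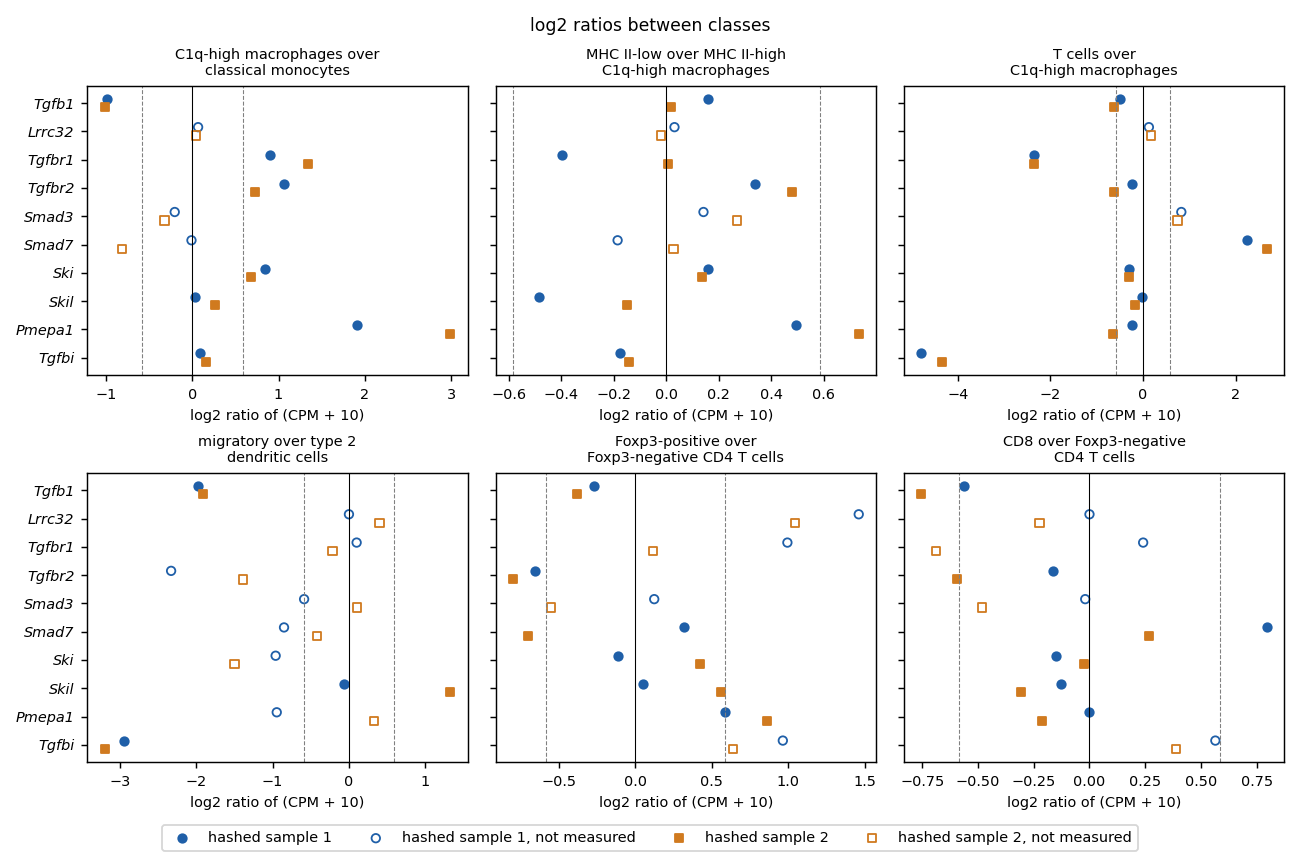
Log2 ratios of (CPM + 10) for the 10 genes in 6 comparisons of classes, circles hashed sample 1 and squares hashed sample 2; open symbols mark genes not measured, the dashed lines mark 1.5-fold, and the axes differ between panels. Pmepa1 lies past the line on the macrophage side over monocytes in both hashed samples, and Tgfbi and Tgfbr1 lie far on the low side in T cells over C1q-high macrophages.

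MHC II-low over MHC II-high C1q-high macrophages differed little in these genes. Of the members 7 were measured, 0 were counted higher and 0 lower, where 3.26% of 2699 measured genes were counted higher and 2.11% lower. The median of all measured genes lay at 0.13 on the log2 scale, and with trimmed-mean (TMM) scaling the counts over all genes turned to 53 higher and 84 lower, against 88 higher and 57 lower. Pmepa1 came nearest: it held 220.5 and 251 CPM in the MHC II-low class and 153 and 147 CPM in the MHC II-high class, a ratio of 1.44 (1.27 to 1.63) in hashed sample 1 and 1.71 (1.58 to 1.85) in hashed sample 2. Tgfbr2 had log2 ratios of 0.34 and 0.48, and Skil of −0.49 and −0.15. Dissociation genes summed to 1648 and 1595 CPM in the MHC II-low class and to 2852 and 3186 CPM in the MHC II-high class. The 8 classical monocyte markers summed to 756 and 686 CPM in the MHC II-low class and to 1144 and 1538 CPM in the MHC II-high class. Their part in the ratios was not tested. In the wider pathway Wwp1 was higher (203 and 205 CPM in the MHC II-low class, 84.8 and 67.7 CPM in the MHC II-high class), as were P2ry12 and Gpr34, genes that need TGF-beta in brain microglia, while the response genes Junb and Bhlhe40 were lower.

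Along the MHC class II level the fall of Pmepa1 came at the upper end. C1q-high macrophages were divided into 7 bins, from under 10 to 320 or more MHC class II UMIs per 10000. In hashed sample 1 Pmepa1 stood at 196, 313, 186, 235, 174, 160 and 104 CPM from the lowest bin to the highest, where its first entries move up and down. In hashed sample 2 it held 240.3, 263, 278, 263, 243, 125 and 84.6 CPM, a plateau over the first 5 bins. Tgfbr2 stood at 152 and 178.5 CPM in the lowest bin and at 98.8 and 106 CPM in the highest. The dissociation genes went the other way, with 1765 and 1422 CPM in the lowest bin and 3034 and 3583 CPM in the highest. With the gates, MHC II-low macrophages held 243.7 CPM of Pmepa1 over both hashed samples and MHC II-high ones 149.8 CPM. With named clusters in place of the gates they held 271.6 and 234 CPM, so the classes lay closer together. The split into low and high was not a sharp gap, since 220 of 3019 cells (7.29%) lay within 1.5-fold of it.

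**Figure D3:**
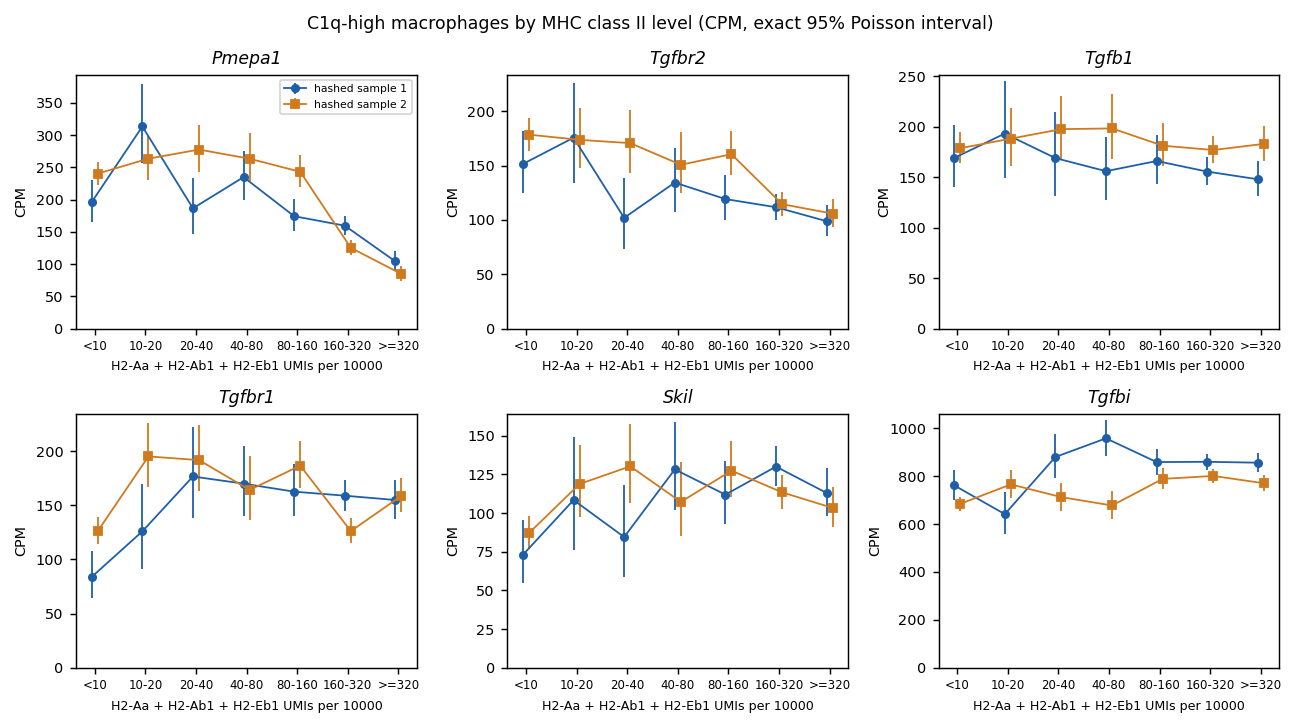
Level of 6 genes (CPM, exact 95% Poisson interval) in C1q-high macrophages divided by MHC class II UMIs (3 genes summed) per 10000; circles are hashed sample 1 and squares hashed sample 2. Pmepa1 is lowest in the highest bin (104 and 84.6 CPM) in both hashed samples, while Tgfb1 and Tgfbi show no comparable fall along the axis.

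Clusters inside C1q-high macrophages differed in Pmepa1. The clusters were built without the 10 genes and without MHC class II genes, and 8 of them had at least 30 such cells in each hashed sample. Pmepa1 differed 5.35-fold and 8.20-fold between its highest and lowest cluster. As extremes of 8 clusters, these folds are not comparable with the ratio of MHC II-low over MHC II-high cells. Pmepa1 reached 284 and 316 CPM in the cluster led by F13a1, Ccl8 and Pf4 and 274.5 and 458 CPM in a cluster led by Stab1. It was lowest in the cluster led by Retnla, Mmp12 and Ear2, with 53.0 and 55.8 CPM. The Retnla cluster also held least Tgfbr2, 47.7 and 72.1 CPM, against 176 and 199 CPM in the F13a1 cluster. The Stab1 cluster had the highest Tgfbr1 (348 and 569 CPM), and its cells were shallow, with a median of 1663 UMIs. The inflammatory cluster led by Tnip3, with Il1b and Cxcl2 among its leading genes, held 250 and 238 CPM of Skil, beside 279.5 CPM in the Stab1 cluster of hashed sample 2. Tgfb1 differed by no more than 1.43-fold and Tgfbi by no more than 1.46-fold across the 8 clusters within a hashed sample.

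Within the F13a1 cluster Pmepa1 was not higher in MHC II-low cells. There the MHC II-low cells held 282 and 295 CPM and the MHC II-high ones 286 and 352 CPM, log2 ratios of −0.02 and −0.25. Within the cluster led by Arg1, Mmp12 and Lpl, the MHC II-low cells held 122 and 103 CPM and the MHC II-high ones 84.0 and 52.8 CPM, log2 ratios of 0.49 and 0.85. These 2 clusters were those with enough MHC II-low cells for the split to be made.

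**Figure D4:**
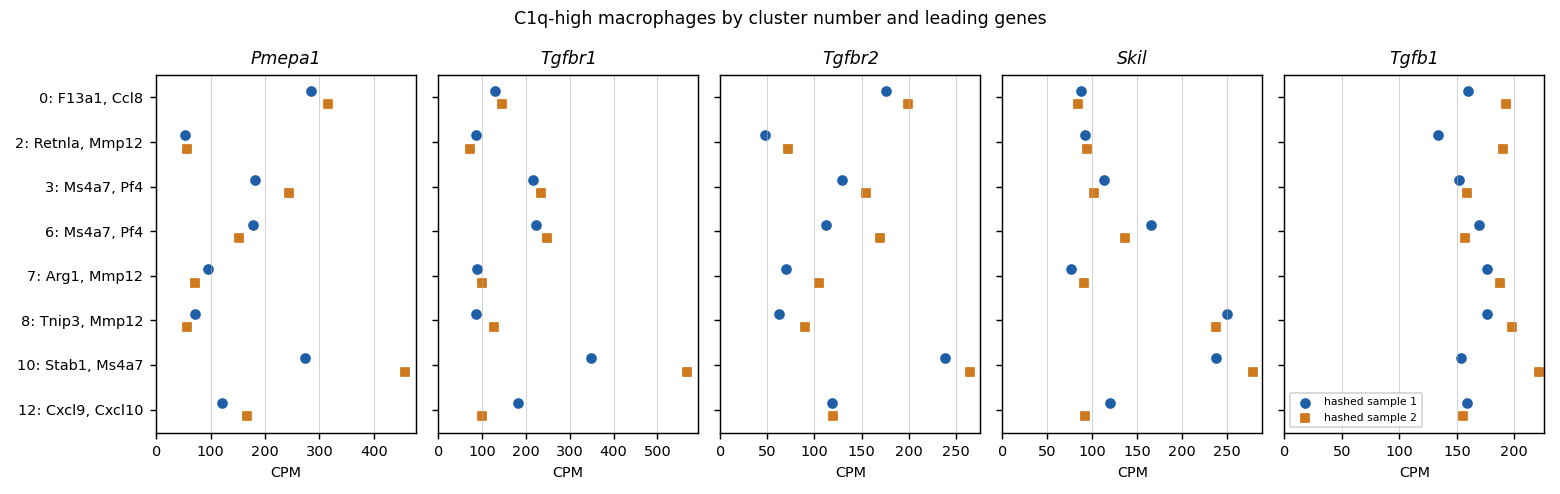
Level of 5 genes (CPM, linear axes) in 8 clusters of C1q-high macrophages, named by number and 2 leading genes; circles are hashed sample 1 and squares hashed sample 2, without intervals. Pmepa1 lies at 284 and 316 CPM in the F13a1 cluster and at 53.0 and 55.8 CPM in the Retnla cluster, while Tgfb1 stays within 1.43-fold across clusters.

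In T cells over C1q-high macrophages, Smad7 was counted higher and Tgfbr1 and Tgfbi lower among 8 members measured. Of 3239 measured genes 24.2% were counted higher and 21.6% lower, with a median at 0.22 on the log2 scale. With TMM scaling these counts became 464 higher and 903 lower, against 783 higher and 699 lower. Of the members, 1 was counted higher and 3 lower with TMM scaling. Smad7 stood at 154 and 161 CPM in T cells, against 24.4 and 16.7 CPM in C1q-high macrophages, a ratio of 6.31 (5.39 to 7.41) in hashed sample 1 and 9.64 (8.08 to 11.5) in hashed sample 2. On the log2 scale Tgfbr1 fell by 2.35 and 2.37 and Tgfbi fell by 4.79 and 4.35. Pmepa1, with log2 ratios of −0.24 and −0.66, was not counted, but it was lower past the threshold against the macrophages of clusters with all 8 resident markers (−0.93 as the mean of both hashed samples). Of the latency and activation genes Nrros, Furin, Itgb5 and Mmp14 were lower in T cells, and of the response genes Id2, Runx3 and Bhlhe40 were higher and Cdkn1a, Runx1 and Fn1 lower.

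Foxp3-positive over Foxp3-negative CD4 T cells showed opposite changes of a response gene and a receptor gene. Foxp3 is the defining regulator of regulatory T cells, and the class had 58 and 21 cells against 292 and 119. A cell was called Foxp3-positive from 1 Foxp3 UMI, so regulatory T cells without a captured Foxp3 UMI would fall in the negative class. Their share there was not tested. Of the members 6 were measured, and 1 was counted higher and 1 lower, where 3.45% of 2844 measured genes were counted higher and 2.29% lower. With TMM scaling those counts were 79 higher and 84 lower, against 98 higher and 65 lower. Pmepa1 held 207 and 226 CPM in Foxp3-positive cells, against 135 and 119.7 CPM in Foxp3-negative cells, a ratio of 1.54 (1.17 to 2.01) in hashed sample 1 and 1.89 (1.203 to 2.90) in hashed sample 2. Tgfbr2 held 61.3 and 63.5 CPM in Foxp3-positive cells, against 102.5 and 118 CPM in Foxp3-negative cells, a ratio of 0.598 (0.362 to 0.939) in hashed sample 1 and 0.539 (0.236 to 1.08) in hashed sample 2. Both calls were close to the threshold: the log2 ratio of Pmepa1 in hashed sample 1 was 0.59, with TMM scaling it was no longer counted, and with cells thinned to 1000 UMIs neither was. Smad7 went in opposite directions in the hashed samples, with log2 ratios of 0.32 and −0.70. Cycling genes summed to 907 and 1243 CPM in Foxp3-positive cells, against 989.6 and 578 CPM in Foxp3-negative cells, and their part was not tested.

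Among the wider pathway genes, Itgae, the CD103 integrin gene induced by TGF-beta in T cells, was counted higher in Foxp3-positive cells, with 134 and 98.8 CPM against 24.1 and 5.06 CPM in Foxp3-negative cells. Itgav, an integrin subunit of complexes that open latent TGF-beta, was also higher, with 169 and 106 CPM against 77.9 and 45.5 CPM in Foxp3-negative cells. Itgb1, the deubiquitinase gene Usp15, Id2 and Runx3 were lower.

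CD8 over Foxp3-negative CD4 T cells gave 0 members counted higher and 0 lower of 6 measured, where 1.87% of 2781 measured genes were counted higher and 2.91% lower. With TMM scaling the counts over all genes were 66 higher and 65 lower, against 52 higher and 81 lower. Tgfb1 held 79.0 and 84.9 CPM in CD8 T cells, against 122 and 150.0 CPM in CD4 T cells, log2 ratios of −0.56 and −0.75, and it was counted lower with a pseudocount of 1 CPM and with thinned cells. Smad7 was 1.80-fold (1.497 to 2.16) in hashed sample 1 and 1.22-fold (0.913 to 1.62) in hashed sample 2. Itgae (60.6 and 52.6 CPM in CD8 T cells against 24.1 and 5.06 CPM in CD4 T cells) and Runx3, which directs CD8 T cell identity, were higher, and Runx1 and Bhlhe40 were lower.

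Migratory over type 2 dendritic cells showed less of the ligand and matrix transcripts. Migratory dendritic cells have matured and carry the lymph-node homing receptor gene Ccr7. Of the members 3 were measured, 0 were counted higher and 2 lower, where 15.7% of 2667 measured genes were counted higher and 20.7% lower, with a median at −0.13 on the log2 scale. Tgfb1 held 30.2 and 38.6 CPM in migratory cells, against 148 and 172 CPM in type 2 cells, and fell by 1.98 and 1.91 on the log2 scale. After thinning to 1000 UMIs it was seen in 0 of 48 and 0 of 32 migratory cells. Tgfbi held 41.1 and 28.9 CPM in migratory cells, against 384 and 348 CPM in type 2 cells, and fell by 2.95 and 3.20. Tgfbr2 had 1 and 4 UMIs in migratory cells, against 43 and 95 UMIs in type 2 cells, a ratio of 0.0508 (0.00126 to 0.298) in hashed sample 1 and 0.258 (0.0688 to 0.681) in hashed sample 2, but it did not reach 50 CPM in both hashed samples. Nrros and Furin, the protease gene that cleaves the TGF-beta precursor, were lower as well, as were Smad1, Runx1 and Runx3, while Itgb1 was higher. Itgb8, whose integrin opens latent TGF-beta, was not measured, with 43.9 and 12.9 CPM in migratory cells against 0 and 0.525 CPM in type 2 cells.

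Within a class of at least 30 cells in each hashed sample, 3 measured members differed by more than 1.5-fold between the hashed samples. Skil in migratory dendritic cells was higher in hashed sample 2 by 0.90 on the log2 scale, Tgfbr2 in classical monocytes by 0.60, and Pmepa1 in type 2 dendritic cells was lower by 0.87. Over all measured genes 20.3% passed that fold in migratory dendritic cells, 10.7% in classical monocytes and 3.77% in type 2 dendritic cells. The smaller class of Foxp3-positive CD4 T cells was left out of these counts. It held 149 CPM of Smad7 in hashed sample 1 and 91.8 CPM in hashed sample 2. The share of C1q-high macrophages that were MHC II-low also differed, with 35.6% (33.4 to 37.9) in hashed sample 2 and 16.5% (14.5 to 18.7) in hashed sample 1, exact binomial intervals for counting error. Values pooled over all macrophages therefore mix these classes in different shares.

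The genes whose levels over the 10 classes were most like each member were ranked among 4209 genes by the lower of the Pearson correlations in the hashed samples. These are descriptions over 10 points that share libraries. Tgfbi was closest to Cd300c2 and Fcgr2b (r of 0.99 in both hashed samples), and Tgfbr1 to C3ar1 (0.95 and 0.96). Smad7 was closest to Klk8 (0.98 and 0.97) and Rapgef6 (0.97 and 0.97), Tgfb1 to Tor1aip1 (0.96 and 0.93), Tgfbr2 to Tmem50a (0.93 and 0.93) and Ski to Mindy2 (0.94 and 0.97). Pmepa1 had Slc9a9 as its nearest gene (0.93 and 0.82) and Skil had Actg1 (0.72 and 0.76), the loosest of the 8 members ranked.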

How the data were processed

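The authors deposited UMI counts per gene and cell as filtered Cell Ranger matrices, 1 for each hashed sample. Cell Ranger 6.1.1 is named per the file headers, and Cell Ranger 6.0, Seurat 4.3.0 and build mm10 per the submitters' processing notes. Totals were 20743037 and 25314154 UMIs. The spatial sample was not analysed here.

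Filters of 500 UMIs or more, 200 genes or more and 10% mitochondrial UMIs or less kept 6601 of 7015 cells, and 45 doublets (0.682%; 40 by Scrublet in scanpy 1.11.5, 5 by hashtags) were removed. Another 29 cells with both T cell and C1q markers were left ungated. Classes were set per cell from marker genes, with thresholds chosen after seeing the data, for example 60 C1q UMIs per 10000 for C1q-high macrophages. Leiden clusters (leidenalg 0.10.2), built without the members and MHC class II genes and named from the same markers, were the alternative; shallow clusters and those led by markers of another class stayed unnamed. Members, markers and gene lists were chosen with earlier results of these data known. Named genes are all 10 members and the genes of those lists; 1 list is not reported here for macrophages against monocytes. Counts were summed per class and hashed sample and compared as log2(CPM + 10), with exact conditional binomial intervals. The labels name no replicates and do not explain the matrix names, so no test was run. The fold rule was tested on simulated data. TMM factors came from edgeR 4.0.16. Coordinates and promoters are from RefSeq, GRCm38.p6, for 6 members. Free RNA and depth bear on every low level.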

Additional observations from a re-analysis of the deposited data

How the results depend on the processing

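No paired analysis was made because the hashed samples are not labelled as replicates, apart from the unexplained matrix names. No result comes from a test. No counted value changed sign under any alternative. Tgfbr1 in migratory over type 2 dendritic cells, not measured and at a mean log2 ratio of −0.06, was counted higher at 1.03 with cells thinned to 1000 UMIs. Stricter cell filters (1000 UMIs and 5% mitochondrial) kept the call of each of the 60 member comparisons. With a fold of 2, the members counted dropped to 1 of 5 in C1q-high macrophages over classical monocytes and to 0 of 2 in Foxp3-positive over Foxp3-negative CD4 T cells. Gate thresholds doubled left 4 of 5 in macrophages over monocytes, without Ski. For Foxp3-positive over Foxp3-negative cells it was also 0 with gate thresholds doubled, 0 with cells thinned to 1000 UMIs, 1 with TMM factors and 4 with no filter on low values. In CD8 over Foxp3-negative CD4 T cells, with 0 counted, a pseudocount of 1 CPM gave 1 and thinning gave 1. In migratory over type 2 dendritic cells, with 2 counted, no filter gave 4 and thinning gave 5 (1 higher, 4 lower). With 1 hashed sample left out, the counts ranged from 0 to 1 for MHC II-low over MHC II-high C1q-high macrophages, from 1 to 2 for CD8 over CD4 T cells, were 4 for migratory over type 2 dendritic cells either way, and ranged from 3 to 6 for T cells over C1q-high macrophages, where 3 were counted with both. The cause was not tested, except that a single sample needs no agreement. Named clusters in place of gates, and C1q-high macrophages of the clusters with all 8 resident markers (chosen after seeing the data), each changed 1 member call, Pmepa1 in T cells over macrophages. Over all genes, in the order macrophages over monocytes, MHC II-low over MHC II-high macrophages, Foxp3-positive over Foxp3-negative, CD8 over CD4, migratory over type 2 dendritic and T cells over macrophages, the genes counted were 409, 145, 163, 133, 969 and 1482. With no filter they were 852, 237, 572, 335, 2108 and 3165, and with a fold of 2 they were 197, 47, 62, 40, 606 and 880. With 1 hashed sample left out they were 665 to 714, 223 to 289, 443 to 1015, 312 to 507, 1413 to 1454 and 1748 to 1841. Thinning gave 455 for Foxp3-positive over Foxp3-negative and 241 for CD8 over CD4 T cells, and for MHC II-low over MHC II-high macrophages named clusters gave 86 and the clusters with all 8 markers 90. Levels rest on few UMIs in the Foxp3-positive, migratory and NK classes, which limits any small ratio there.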
